A study of Mus musculus with 37 samples.

Results

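The macrophage genes Cd68, Csf1r, Mrc1, Cd163, Lyz2, Nos2, Spp1, Trem2 and Marco were followed through bulk RNA-seq of the mouse urinary tract. They were chosen by name, and all 9 had a row among the 24421 gene symbols of the count table. The 37 libraries came from wild-type (WT) female BALB/c mice. N-butyl-N-(4-hydroxybutyl) nitrosamine (BBN), a carcinogen of the urothelium, was taken for 18 weeks by 10 mice from young adulthood, and 3 untreated mice drank tap water. The groups were the side of the upper tract with cancer (UT, 11 libraries from 10 mice, both ureters of mouse 5), the side without it (UN, 7 libraries from 7 of those mice), the ureter of untreated mice (U, 6 libraries, both ureters of 3 mice), the bladder of BBN-treated mice (BBN bladder, BB, 10 libraries) and the bladder of untreated mice (B, 3 libraries). Whole tissue pieces were sequenced, so each library held epithelium, muscle, stroma, fat and blood cells together. Cancer was assigned by side of the tract in the labels, and 1 BBN bladder, that of mouse 6, carries a T in its library name while its title says only bladder.

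Macrophages are phagocytes that enter tissues before birth or arise from blood monocytes, and they live on signals through Csf1r, the receptor for the growth factors Csf1 and Il34. Cd68, a lysosomal glycoprotein, and Lyz2, a secreted lysozyme, mark most phagocytes. Mrc1, the mannose receptor, and Cd163, the receptor for hemoglobin bound to haptoglobin, are typical of macrophages resident in connective tissue. Trem2, a lipid-sensing receptor, and Spp1, the secreted phosphoprotein osteopontin, are known from macrophages of wounds, fat and tumors, although osteopontin is also made by kidney tubule and other epithelia. Nos2, the inducible nitric oxide synthase, stands for inflammatory activation. Marco is a scavenger receptor of alveolar and splenic macrophages. None of the genes is confined to macrophages, since neutrophils express Lyz2 and epithelia can express Nos2.

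Levels are given as CPM, the counts of a gene scaled by the total of its library, with SD over libraries. A gene is said to be called when edgeR's quasi-likelihood test gave a Benjamini-Hochberg adjusted p under 0.1 over all genes tested and a change of at least 2-fold. Totals per library ranged from 4675081 to 18793560 counts in the ureter groups and from 3557697 to 16617435 in the bladders. The lowest ureter total was that of UN 6, whose 10 most abundant genes took 35.5% of its counts. The study lists degraded RNA for UN 6 and for the bladders of mice 1, 3 and 4, and values without them are given where a call changed. Macrophage markers were present throughout: all 10 of Cd68, Csf1r, Mrc1, Cd163, Lyz2, Adgre1, Fcgr1, Mertk, C1qa and Aif1 had counts in every library of every group. The 5 of them that are not members, Adgre1, Fcgr1, Mertk, C1qa and Aif1, summed to a median of 102 CPM in U, 202 CPM in UN, 241 CPM in UT, 102 CPM in untreated bladders and 91.2 CPM in BBN bladders. Lyz2 and Lyz1 are near-identical neighbors, and the counting may have divided reads between them, so the level of Lyz2 is uncertain to that extent. The library kit does not mark strand. The p-values treat libraries as independent, although both ureters of the 3 untreated mice and of mouse 5 entered. UT, UN and BBN bladder libraries also share mice, as do U and untreated bladders, and the mouse was a block only where stated.

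The promoters of Spp1, Trem2, Cd68 and Lyz2, which were called higher with BBN in the ureter, are shown first, beside that of Mrc1, which was not called. Of the 9 members, 7 matched an entry in RefSeq's promoter sequences for GRCm38.p6. The 250 bases before the start site of 5 of them follow, 5′ to 3′ on the strand of the gene. Capitals mark GAGGAA on either strand (TTCCTC when read on the other), the purine box that the myeloid factor Spi1 can bind, and TGANTCA, the AP-1 element, which reads the same on both strands apart from its middle base.
Spp1, chr5:104434861-104435110, plus strand: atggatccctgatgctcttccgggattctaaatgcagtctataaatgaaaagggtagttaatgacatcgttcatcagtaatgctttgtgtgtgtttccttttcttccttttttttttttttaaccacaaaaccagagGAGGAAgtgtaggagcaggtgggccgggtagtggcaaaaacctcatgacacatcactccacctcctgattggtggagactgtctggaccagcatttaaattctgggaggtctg
Trem2, chr17:48346151-48346400, plus strand: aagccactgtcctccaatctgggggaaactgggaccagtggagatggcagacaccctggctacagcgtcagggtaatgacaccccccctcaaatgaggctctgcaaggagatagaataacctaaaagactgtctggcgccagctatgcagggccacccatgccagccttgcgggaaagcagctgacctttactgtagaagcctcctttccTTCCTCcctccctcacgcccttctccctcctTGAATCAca
Cd68, chr11:69666171-69666420, minus strand: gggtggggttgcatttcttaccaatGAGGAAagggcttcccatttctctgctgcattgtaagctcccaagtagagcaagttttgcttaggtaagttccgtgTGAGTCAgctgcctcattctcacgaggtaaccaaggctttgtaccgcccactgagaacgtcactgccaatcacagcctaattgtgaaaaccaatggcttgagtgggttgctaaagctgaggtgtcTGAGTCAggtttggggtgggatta
Lyz2, chr10:117282273-117282522, minus strand: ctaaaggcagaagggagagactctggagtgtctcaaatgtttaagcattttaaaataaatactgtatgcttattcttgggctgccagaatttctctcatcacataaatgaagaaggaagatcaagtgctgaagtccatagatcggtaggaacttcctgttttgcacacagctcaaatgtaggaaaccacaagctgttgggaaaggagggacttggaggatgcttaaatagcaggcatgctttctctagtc
Mrc1, chr2:14229164-14229413, plus strand: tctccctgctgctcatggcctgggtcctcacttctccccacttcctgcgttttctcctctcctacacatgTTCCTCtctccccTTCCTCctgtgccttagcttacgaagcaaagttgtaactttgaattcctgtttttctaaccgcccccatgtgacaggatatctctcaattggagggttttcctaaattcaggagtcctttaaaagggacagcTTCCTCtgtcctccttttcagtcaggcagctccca
GAGGAA was present in 5 of the 7 member windows and in 23.3% of 32817 promoter windows of the same length. TGANTCA was present in 2 of the 7, those of Cd68 and Trem2, and in 6.75% of all windows. Cd68 held 1 GAGGAA and 2 TGANTCA, Trem2 1 of each and Spp1 1 GAGGAA. Mrc1, which was not called in any of the 6 comparisons, held 3 GAGGAA, while Lyz2 held neither motif in this window. The fifth window with GAGGAA was that of Marco, not shown. These matches describe letters and not binding, and the 2 motifs did not overlap in any window shown.

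Levels were compared between the genes after division by transcript length (CPM per kilobase, longest principal transcript of GENCODE). In U, Lyz2 led with 343 ± 93.8 (SD, n = 6) CPM per kilobase, followed by Cd68 with 18.3 ± 5.01 and Csf1r with 15.8 ± 4.66. Cd68 and Csf1r lay within their spread of each other, as did Cd163 (8.34 ± 3.54) and Mrc1 (8.11 ± 2.46). Nos2, Trem2 and Spp1 came next, at 1.51 ± 0.345, 1.43 ± 0.391 and 1.25 ± 0.892 CPM per kilobase, without separation beyond their spread. Marco was last at 0.0177 ± 0.0300. The order changed with BBN. In UT, Spp1 stood first at 1642 ± 4172 CPM per kilobase (SD, n = 11) and Lyz2 second at 1180 ± 607, which do not differ beyond that spread. The place of Spp1 in UT rested on UT 4, a library that also stood apart in kidney tubule markers, and without it the mean was 390 ± 440 CPM per kilobase (SD, n = 10) and Lyz2 came first at 1254 ± 586. By the median of each group, Spp1 was 8th of the 9 genes in U, 4th in UN, 2nd in UT and 5th in BBN bladder. By the same measure Trem2 was 7th in U and 5th in UN and UT, and Marco was last in every group.

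**Figure D1:**
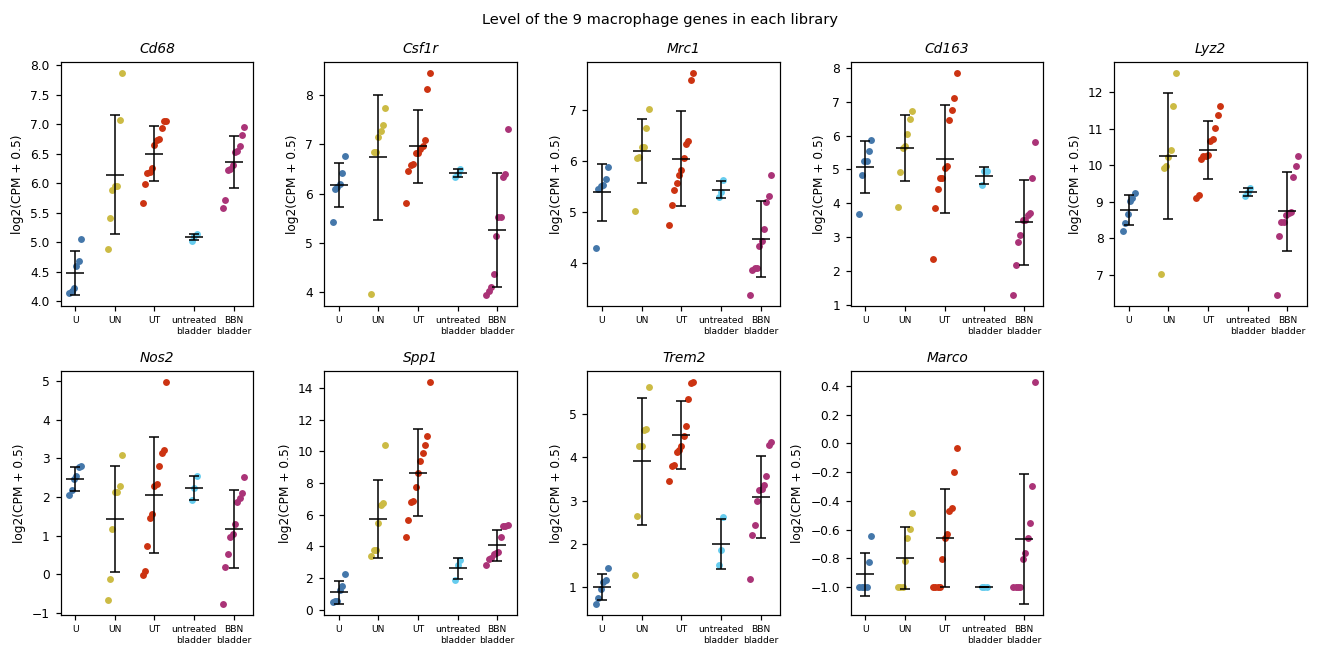
Level of each macrophage gene as log2(CPM + 0.5), 1 point per library, with the mean and SD of the group in black, for U (n = 6), UN (n = 7), UT (n = 11), untreated bladder (n = 3) and BBN bladder (n = 10). Spp1, Trem2 and Cd68 of all 11 UT libraries lie above all 6 U libraries, while Csf1r, Mrc1, Cd163 and Nos2 overlap.

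The first question was what BBN did on the side of the tract without cancer. Against U, 4 members were called higher in UN: Cd68, Lyz2, Spp1 and Trem2. None was called lower, and 8 of the 9 could be tested, since Marco did not pass the filter on low counts in any comparison. Of all 15658 genes tested, 12.5% were called higher and 1.21% lower, 1950 and 189 genes. With libraries of a mouse summed to a single sample, 147 genes were called higher and 10 lower, and leaving out 1 library moved the lower count between 97 (without UN 3) and 422 (without UN 9). The lower count was 296 with DESeq2, 378 with only UN and U fitted, 632 without mice 8 to 10 and 793 with voom. In bulk tissue, fewer cells of a type and less RNA per cell cannot be told apart. Summed neutrophil markers moved with these genes, from 31.3 to 47.4 CPM in U against 73.9 to 580 CPM in UN, and 7 of the 9 tested of 12 neutrophil genes were called higher. Their part in the result was not tested.

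Spp1, the osteopontin gene, was at 0.867 CPM at the lowest, 1.41 at the median and 4.36 at the highest in U. In UN it was 10.03 at the lowest, 43.8 at the median and 1346 at the highest. All 7 UN libraries lay above all 6 U libraries, and Spp1 was the 1 of 9 members without overlap, where 2.09% of all genes tested lay wholly above U and 1.3% wholly below. The log2 fold change was 6.88 ± 1.73 (SE; adjusted p = 0.0124, edgeR's quasi-likelihood test). Its size leaned on UN 3, the library with 1346 CPM, and without UN 3 it was 4.66 ± 1.41 (adjusted p = 0.0442, edgeR). With libraries summed by mouse the fold change was alike but not called (6.87 ± 2.498, adjusted p = 0.196, edgeR).

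Trem2 lay between 1.04 and 2.21 CPM in U, with a median of 1.58. In UN it ranged from 1.93 to 48.6 CPM around a median of 18.8. Only UN 6 fell within the range of U, and the other 6 UN libraries stood above it. The log2 fold change was 3.70 ± 0.575 (SE; adjusted p = 0.000594, edgeR), and it was called with libraries summed by mouse as well (3.68, adjusted p = 0.072, edgeR).

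Cd68 rose from 22.4 ± 6.16 CPM (SD, n = 6) in U to 88.4 ± 71.8 CPM (SD, n = 7) in UN. The lowest UN library was UN 6 at 29.1 CPM, inside the range of U, whose highest library had 32.8 CPM, and the other 6 were above it. Its log2 fold change was 2.05 ± 0.420 (SE; adjusted p = 0.00338, edgeR). Lyz2 rose from 452 ± 124 CPM to 1956 ± 1948 CPM, a log2 fold change of 2.19 ± 0.590 (adjusted p = 0.0175, edgeR). With libraries summed by mouse, neither was called, at 2.04 for Cd68 (adjusted p = 0.126, edgeR) and 2.18 for Lyz2 (adjusted p = 0.216, edgeR). UN 2 carried much of both differences, with 233 CPM of Cd68 and 5857 CPM of Lyz2. Without it the log2 fold changes were 1.41 for Cd68 (adjusted p = 0.00411, edgeR) and 1.38 for Lyz2 (adjusted p = 0.0528, edgeR). UN 2 stood apart in its markers of other cells. Its urothelial markers summed to 14.8 CPM, where the other 6 UN libraries had 612 to 3833 CPM, and its neutrophil (580 CPM) and adipocyte (55653 CPM) sums were the highest of UN. Their part in its macrophage levels was not tested. UN 6 had the lowest Lyz2, at 130 CPM.

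Nos2, which makes nitric oxide, was not called: its UN libraries ran from 0.134 to 8.01 CPM against 3.67 to 6.55 CPM in U, with a log2 fold change of -0.79 ± 0.763 (adjusted p = 0.512, edgeR). UN 3, the UN library with the most Spp1, had the least Nos2.

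The receptors Csf1r, Mrc1 and Cd163 were not called in UN. Csf1r was at 74.4 ± 21.9 CPM in U and 131 ± 61.4 CPM in UN (log2 fold change 0.79 ± 0.405, adjusted p = 0.197, edgeR). In 6 of the 7 UN libraries it was above every U library, while UN 6, at 15.0 CPM, was below every one. Mrc1 was at 43.6 ± 13.2 CPM in U and 78.1 ± 30.1 CPM in UN (0.86 ± 0.414, adjusted p = 0.17, edgeR), again with 6 of 7 UN libraries above the range of U. Cd163 was at 36.7 ± 15.6 CPM and 57.9 ± 32.0 CPM (0.63 ± 0.617, adjusted p = 0.515, edgeR), with 3 of 7 above it. Marco was nearly absent, with 3 counts in all over the 6 U libraries and 6 over the 7 UN libraries.

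**Figure D2:**
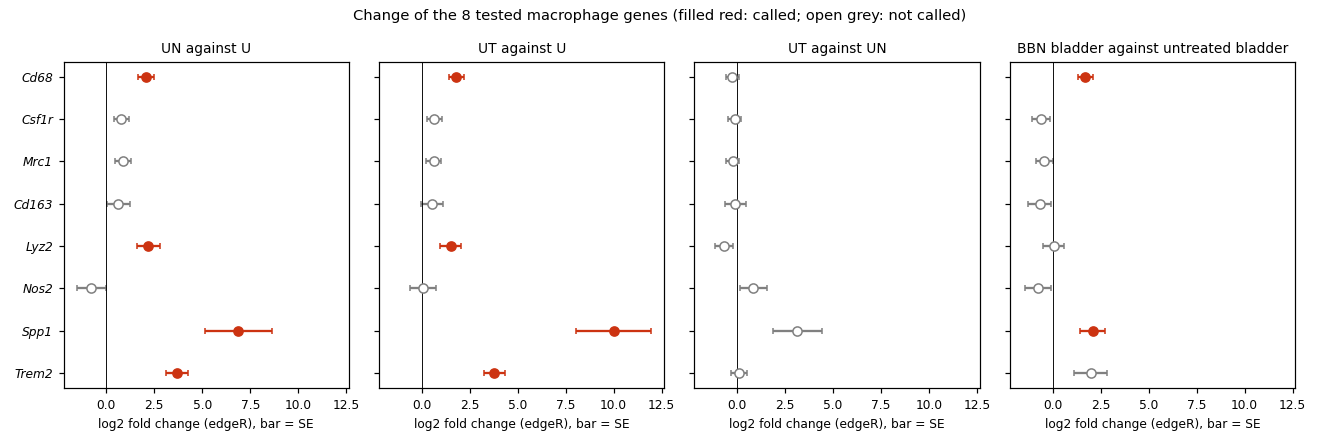
Log2 fold change with its SE from edgeR for the 8 tested macrophage genes in 4 comparisons, filled red where called and open grey where not. Cd68 and Spp1 are called in UN against U, UT against U and BBN bladder against untreated bladder, and no gene is called in UT against UN.

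On the cancerous side the same 4 symbols were called higher against U, Cd68, Lyz2, Spp1 and Trem2, and none lower, where 18.7% of all genes tested were called higher and 12.3% lower. This comparison shares its 6 U libraries with the one above, so the lists are not independent. Spp1, Trem2 and Cd68, 3 of the 9 members, had all 11 UT libraries above all 6 U libraries, as had 14.9% of all genes tested, and 4.38% had all below. Adipocyte markers went the other way, 7 of 7 called lower in UT, with summed levels of 41415 to 64115 CPM in U and 90.7 to 34461 CPM in UT. Of the smooth muscle markers, 5 of 6 were called lower. The part of tissue composition in the member values was not tested.

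Spp1 in UT ranged from 23.5 CPM in UT 9 through a median of 389 CPM to 21338 CPM in UT 4. Its log2 fold change was 10.01 ± 1.95 (SE; adjusted p = 0.000413, edgeR). In UT 4 this single gene took 2.13% of all counts, and the 10 other UT libraries had a mean of 588 ± 663 CPM (SD, n = 10). UT 4 also stood apart in kidney tubule markers, at a summed 2459 CPM where the other 10 UT libraries had 3.27 to 14.6 CPM. Without UT 4 the log2 fold change of Spp1 was 8.03 ± 1.45 (adjusted p = 0.000272, edgeR).

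Trem2 in UT lay between 10.4 and 52.8 CPM, with a median of 18.8, and was 3.78 ± 0.560 higher than U on the log2 scale (adjusted p = 4.87e-05, edgeR). Every UT library had more than 4 times the highest U level of Trem2.

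Cd68 was at 94.1 ± 28.8 CPM (SD, n = 11) in UT, with the least in UT 9 (50.4 CPM) and the most in UT 2 (133 CPM). The log2 fold change against U was 1.80 ± 0.394 (adjusted p = 0.00103, edgeR), and the UT libraries were closer to each other than the UN libraries were, with a coefficient of variation of 30.6% against 81.2%. Lyz2 was at 1552 ± 799 CPM, 1.503 ± 0.542 above U (adjusted p = 0.0277, edgeR), with 9 of 11 UT libraries above the range of U. With libraries summed by mouse, Lyz2 was no longer called (1.54, adjusted p = 0.171, edgeR). Csf1r (0.66 ± 0.374), Mrc1 (0.62 ± 0.381), Cd163 (0.54 ± 0.569) and Nos2 (0.06 ± 0.692) were not called, with adjusted p of 0.157, 0.193, 0.458 and 0.949 (edgeR). Cd163 spread 49.6-fold between UT libraries, from 4.61 CPM in UT 4 to 229 CPM in UT 8.

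The study's central contrast, cancerous against noncancerous side, gave 0 called members with edgeR, DESeq2 and voom alike, and 1 of the 8 tested, Spp1, had an unadjusted p under 0.05. Of all genes, 1.32% were called higher and 4.2% lower, 206 and 658 genes. Those counts were unstable, from 4 (without UT 5L) to 614 (without UN 7) higher and from 1 (without UT 2, UT 5L or UN 6) to 1245 (without UT 9) lower when 1 library was left out, and 0 either way with voom. All 9 members overlapped between the groups, where 0.0128% of all genes tested lay wholly above UN and 0 below. Spp1 had the largest difference, at a log2 fold change of 3.13 ± 1.29 (SE; adjusted p = 0.143, edgeR). Of the markers of other cells, 2 of 6 tested for kidney tubule were called higher in UT than in UN, and 4 of 6 for smooth muscle and 1 of 8 for urothelium lower, and their part in this difference was not tested. The value of Spp1 hung on single libraries. It was called without UT 9 (3.27, adjusted p = 0.092, edgeR) and without UN 3 (5.35, adjusted p = 0.0374, edgeR). Without UT 4 the log2 fold change of Spp1 was 1.15 (adjusted p = 0.445, edgeR). The study left UT 9 out of its UT group. The other 7 tested members had log2 fold changes between -0.69 for Lyz2 and 0.85 for Nos2. The fold changes used edgeR's scaling between libraries, and the CPM did not. For Cd68, Csf1r, Mrc1 and Cd163 the mean CPM was higher in UT than in UN, while the log2 fold change was negative.

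The 7 mice that gave both sides allow the members to be read within an animal. In 6 of them the cancerous side had more Spp1, by 2.34 times in mouse 9 at the least and 224 times in mouse 4 at the most, and lower in mouse 3 (686 against 1346 CPM). Cd68 was above its UN level in UT in 5 mice, by at most 2.48 times. Csf1r ran the other way in number, lower in UT in 5 of 7, and Cd163 likewise. In mouse 4, Cd163 fell from 105 CPM in UN to 4.61 CPM in UT while Spp1 went from 95.3 to 21338 CPM. In mouse 6, where UN was the library with degraded RNA, Csf1r was 119 CPM in UT and 15.0 CPM in UN, and Lyz2 1689 and 130 CPM. With the mouse as a block, 0 genes in all and no member were called by edgeR.

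**Figure D3:**
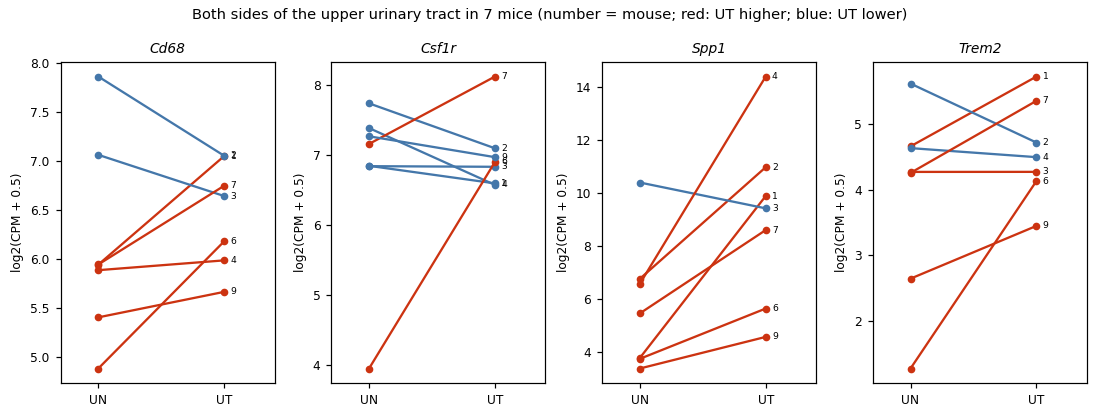
Levels of 4 macrophage genes, as log2(CPM + 0.5), on the noncancerous (UN) and cancerous (UT) side of the 7 mice that gave both, joined by mouse and numbered. Spp1 is higher on the cancerous side in 6 mice and Csf1r lower in 5.

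The bladder shows the same carcinogen in another organ of the same mice. Against untreated bladder, BBN bladder had 2 called members, Cd68 and Spp1, both higher, where 7.61% of the 18050 genes tested were called higher and 5.74% lower. Without any 1 of the untreated bladders, the 1373 genes called higher became 528 to 541 and the 1036 called lower 496 to 534, and DESeq2 called 4646 higher. Voom called 3275 higher and 2395 lower, and without mice 8 to 10 edgeR called 3100 higher. Neutrophil markers moved with these members, 4 of 8 tested called higher with BBN, from a summed 15.8 to 18.7 CPM to 20.5 to 267 CPM, and urothelial markers fell, 4 of 8 called lower. Their part in the result was not tested. Of the 9 members, Cd68 alone did not overlap, where 4.99% of all genes tested lay wholly above and 12% wholly below the untreated bladders. Cd68 was between 32.1 and 34.8 CPM in the 3 untreated bladders and between 47.1 and 124 CPM in the 10 BBN bladders, a log2 fold change of 1.71 ± 0.391 (SE; adjusted p = 0.0118, edgeR).

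Spp1 in the bladder went from 3.14, 6.68 and 8.13 CPM without BBN to a median of 11.7 CPM and a highest value of 41.1 CPM with it. Among the BBN bladders, 9 of 10 were above the untreated range. The log2 fold change was 2.09 ± 0.661 (SE; adjusted p = 0.0617, edgeR), and the call was lost without any 1 of the 3 untreated bladders, at adjusted p of 0.266, 0.167 and 0.21 without B 1, B 2 and B 3 (edgeR). Trem2 went from 3.73 ± 1.76 CPM (SD, n = 3) to 9.63 ± 5.92 CPM (SD, n = 10) and was not called (1.98 ± 0.847, adjusted p = 0.145, edgeR). It was called by DESeq2 (2.19, adjusted p = 0.0303), by voom (1.16, adjusted p = 0.0557) and without mice 8 to 10 (2.201, adjusted p = 0.0951, edgeR).

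None of the resident receptors passed the test in the bladder. Csf1r was at 80.8, 83.7 and 90.5 CPM in the untreated bladders and between 14.9 and 158 CPM with BBN, where 8 of 10 libraries were below the untreated range (-0.60 ± 0.454, adjusted p = 0.378, edgeR). Mrc1 (-0.42 ± 0.465, adjusted p = 0.563, edgeR) and Cd163 (-0.68 ± 0.605, adjusted p = 0.466, edgeR) each had 8 of 10 BBN bladders below the untreated range too. Cd163 was called lower by voom with weights per group (-1.17, adjusted p = 0.0225), which called 2395 genes lower where edgeR called 1036. The bladders of mice 1, 3 and 4, listed with degraded RNA, and that of mouse 6 held the least Csf1r, from 14.9 to 20.2 CPM, and Lyz2 was at 87.8 CPM in the bladder of mouse 3 against 1217 CPM in that of mouse 2. Lyz2 did not pass the test over all bladders (0.05 ± 0.547, adjusted p = 0.96, edgeR), nor did Nos2 (-0.77 ± 0.669, adjusted p = 0.451, edgeR). Marco had 0 counts in the 3 untreated bladders, which allows up to 0.0652 CPM over the group by counting error alone, and at most 0.843 CPM, in the bladder of mouse 3, with BBN.

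Between the ureter and the bladder of untreated mice 1 member was called, Spp1, lower in U. Of all 15318 genes tested, 15.7% were called higher in U and 14.3% lower. Markers of other cells differed between the organs, with 7 of 7 adipocyte markers higher in U and 8 of 8 urothelial and 5 of 6 smooth muscle markers lower. Among leukocytes, 5 of 7 neutrophil and 3 of 7 T cell markers tested were higher in U. Urothelial markers summed to 1119 to 2249 CPM in U and 16087 to 16705 CPM in bladder, and their part in the member values was not tested. Spp1 was at 1.89 ± 1.34 CPM (SD, n = 6) in U and 5.98 ± 2.57 CPM (SD, n = 3) in bladder (log2 fold change -1.27 ± 0.490, adjusted p = 0.0417, edgeR), and the call was lost without B 2 (adjusted p = 0.165, edgeR) or B 3 (adjusted p = 0.11, edgeR). A further 3 members passed the adjusted p but not the 2-fold limit: Trem2 (-0.86 ± 0.325), Nos2 (0.64 ± 0.232) and Cd163 (0.76 ± 0.327), with adjusted p of 0.0381, 0.0312 and 0.0637 (edgeR). Trem2 was called lower in U without U 3L (-1.02, adjusted p = 0.0146, edgeR) and without B 3 (-1.11, adjusted p = 0.0175, edgeR). Trem2 was the 1 member without overlap, all 6 U libraries, at 1.04 to 2.21 CPM, lying below the 3 untreated bladders, at 2.35, 3.13 and 5.71 CPM. By this measure 47.3% of all genes tested lay wholly below the bladders and 16.1% wholly above. Csf1r, Mrc1, Lyz2 and Cd68 had log2 fold changes between -0.19 and 0.39.

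Whether BBN moved the members more in the noncancerous ureter than in the bladder was tested as an interaction. Spp1 was the 1 member called, with a response 4.82 ± 1.28 larger in the ureter on the log2 scale (SE; adjusted p = 0.0607, edgeR), where 1.51% of 18786 genes were called larger in the ureter and 0.548% smaller. Leaving out 1 library moved these counts, 284 and 103 genes, to between 123 (without B 1) and 430 (without UN 2) larger and between 20 (without B 3) and 181 (without UN 6) smaller. DESeq2 called 454 larger and 472 smaller and voom 1099 and 720, so the excess of larger responses was not kept by DESeq2. The smaller count was 221 with the mouse as a block, and without UN 6 and the bladders of mice 1, 3 and 4 the counts were 679 and 330. Of the markers of other cells, 1 of 8 for urothelium and 1 of 6 for fibroblasts were called larger in the ureter (median log2 differences over each list 2.02 and 1.82), and none of the 10 tested for neutrophils was called (median -1.31, edgeR). Their part in the response of Spp1 was not tested. The call was lost with the mouse as a block (2.24, adjusted p = 0.32, edgeR), in which Cd163 was called instead (1.72, adjusted p = 0.0704, edgeR). It was also lost without UN 3 (2.55, adjusted p = 0.194, edgeR), and without any 1 of U 1R, U 1L, U 2R, U 2L, B 1, B 2 and B 3 (4.56 to 5.15, adjusted p from 0.102 to 0.17, edgeR). Lyz2 (2.11 ± 0.833, adjusted p = 0.286, edgeR), Trem2 (1.72 ± 0.896, adjusted p = 0.459, edgeR) and the receptors Csf1r, Mrc1 and Cd163 (1.37, 1.26 and 1.27) had positive values that were not called. Without UN 6 and the bladders of mice 1, 3 and 4, Mrc1 (1.76, adjusted p = 0.044, edgeR) and Trem2 (2.78, adjusted p = 0.0336, edgeR) were called as well. Nos2 (-0.03 ± 0.921) was near 0 with a wide error.

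Relating each member to Csf1r within a library sets it against a receptor of the lineage. The measure was the log2 ratio of CPM + 0.5, tested by exact permutation of the libraries (two-sided) with Benjamini-Hochberg adjustment over 32 ratios. Only the 8 other members were tested in this way. The counts of called ratios therefore have no share over all genes beside them and are not particular to the members. Against U, UN had higher ratios of Spp1 and Trem2 to Csf1r and a lower ratio of Nos2, 3 of 8 called. Spp1 to Csf1r went from -5.08 ± 1.07 (SD, n = 6) in U to -1.003 ± 2.39 (SD, n = 7) in UN (exact permutation test, adjusted p = 0.0187), and Trem2 to Csf1r from -5.16 ± 0.593 to -2.83 ± 0.840 (exact permutation test, adjusted p = 0.0187). Nos2 to Csf1r fell from -3.69 ± 0.530 to -5.31 ± 1.27 (exact permutation test, adjusted p = 0.029). The ratio of Cd68 differed by 1.10 and that of Lyz2 by 0.91, neither called (exact permutation test, adjusted p = 0.132 and 0.135).

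In UT, 4 ratios were called higher than in U, those of Spp1, Trem2, Cd68 and Lyz2, again without a share over all genes to set beside them. Trem2 to Csf1r differed by 2.71 and Spp1 by 6.78 (exact permutation test, adjusted p = 0.00388 for each). Cd68 differed by 1.23 (exact permutation test, adjusted p = 0.0187) and Lyz2 by 0.85 (exact permutation test, adjusted p = 0.024). Mrc1 differed by -0.13 and Cd163 by -0.56, neither called (exact permutation test, adjusted p = 0.854 and 0.572). With 1 value per mouse, Trem2 was the ratio still called in UN, and Spp1 and Trem2 in UT. Between UT and UN 0 of 8 ratios were called by the exact permutation test, and 0 had an unadjusted p under 0.05. In the bladder, Cd68 (2.42) and Spp1 (2.60) were higher relative to Csf1r with BBN (exact permutation test, adjusted p = 0.0187 and 0.028). The 3 bladders with degraded RNA were among those with the least Csf1r, and without them the ratio of Cd68 was called and that of Spp1 was not.

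**Figure D4:**
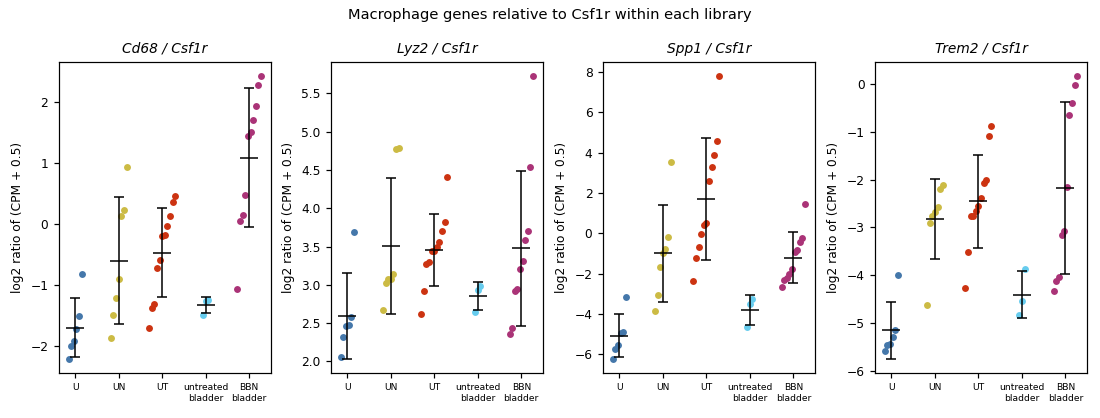
Log2 ratio of 4 macrophage genes to Csf1r within each library, from CPM + 0.5, 1 point per library with the mean and SD of the group in black. Trem2 to Csf1r is -5.16 ± 0.593 in U and -2.83 ± 0.840 in UN, and the Cd68 ratio is above 0 in 9 of 10 BBN bladders.

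Within groups, the members did not peak in the same library. In UN, UN 2 was highest for 5 of the 8 members other than Marco and UN 6 lowest for 6, but UN 3 led Spp1. In UT, 3 members peaked in UT 8 (Csf1r, Mrc1, Cd163), 2 in UT 2 (Cd68, Nos2), and 1 each in UT 4 (Spp1), UT 5R (Trem2) and UT 7 (Lyz2). UT 7 and UT 8 together held the highest levels of both resident receptors, 193 and 210 CPM of Mrc1 and 136 and 229 CPM of Cd163. UT 4, with the most Spp1, had the least Mrc1 and Cd163 of the UT libraries. UT 2 held the most Nos2, at 31.0 CPM.

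**Figure D5:**
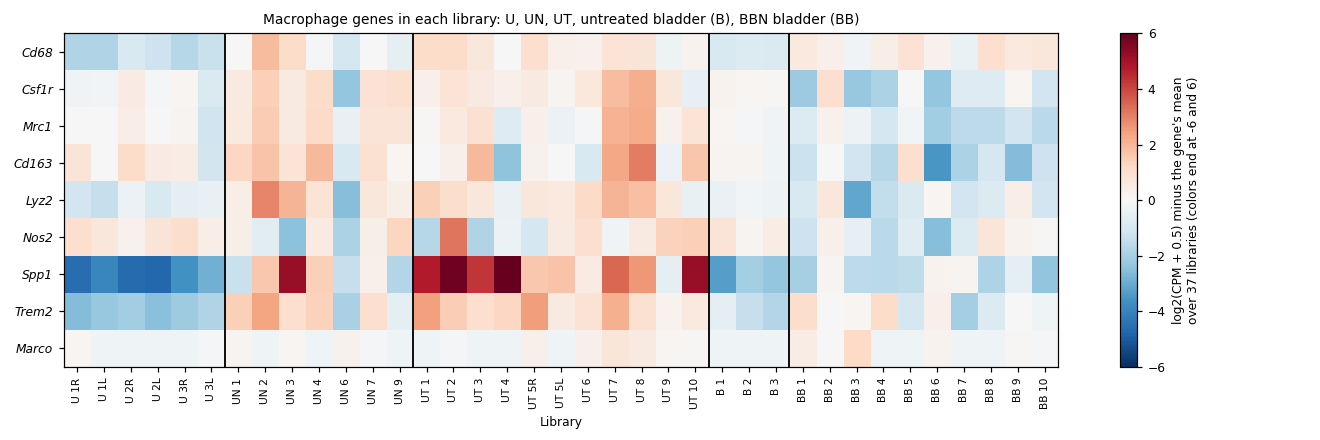
Macrophage genes in the 37 libraries as log2(CPM + 0.5) minus the mean of the gene over all libraries (columns ordered by group, with lines between groups, and colors ending at -6 and 6). Spp1 is at most 8.125 CPM in every U and untreated bladder library, and Csf1r, Mrc1, Cd163 and Lyz2 have their lowest values of all in BBN bladders.

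Across the 37 libraries, which share tissue and group differences, the order of levels was compared by Spearman's rho as a description. The closest pair of members was Mrc1 and Cd163 (0.88), then Csf1r and Lyz2 (0.85), Csf1r and Mrc1 (0.82), and Spp1 and Trem2 (0.78). Nos2 ran most against Cd68 (-0.38). Among 15374 genes with a mean of at least 1 CPM, the 3 most like Csf1r were Itgb2, the leukocyte integrin chain (0.92), Tbxas1 (0.92) and Pirb (0.92). F13a1, coagulation factor XIII of resident macrophages, was the closest to both Mrc1 (0.89) and Cd163 (0.90). Lyz2 was closest to its paralog Lyz1 (0.95), then Arhgap9 (0.93) and the Fc receptor Fcgr2b (0.92). Trem2 followed Ms4a6d (0.87), the Fc receptor Fcgr3 (0.86) and the oxidase subunit Cyba (0.85). Spp1 followed Trem1, a receptor of neutrophils and monocytes (0.89), the protease inhibitor Timp1 (0.89) and Sirpb1a (0.87), and Cd68 followed Sectm1a (0.86), Slfn2 (0.85) and Rhog (0.85). For Nos2 the 3 were Ipo9, Cul7 and Mum1 (0.77, 0.77 and 0.76). The nearest to Marco, Gm15056, reached 0.71 on counts close to 0.

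The genes around the members were described from hand-written lists, chosen with earlier results of these data known. The counts are to be read beside the shares of all genes tested, 12.5% called higher and 1.21% lower in UN against U, 18.7% and 12.3% in UT against U, and 7.61% and 5.74% in BBN bladder. With libraries of a mouse summed to a single sample, most list calls in UN were lost, so each list is given under that fit too. Over all genes, that fit called 147 higher and 10 lower in UN. Its list counts in UN are to be read beside those numbers and not beside the shares above. In UT its counts over all genes stayed nearer to those of the fit by library. Of 20 core genes of tissue macrophages, among them complement, Fc receptor chain and lysosomal protease genes, 18 were called higher in UN than in U, with a median log2 fold change of 1.96 against 0.13 over all genes tested, and none lower. Summed by mouse, 2 of the 20 were called in UN (median 1.945, with 18 at an unadjusted p under 0.05) and 15 in UT. The 2 core genes not called in UN or UT were the macrophage markers Adgre1 (0.70 ± 0.487 in UN, adjusted p = 0.349, edgeR) and Mertk (-0.45 ± 0.378 in UN, adjusted p = 0.436, edgeR). Ctss, cathepsin S, went from 33.1 ± 7.54 to 241 ± 211 CPM (2.88 ± 0.512, adjusted p = 0.00124, edgeR), and Tyrobp, the adaptor through which Trem2 signals, rose by 2.51 ± 0.519 (adjusted p = 0.00362, edgeR). The complement gene C1qb went from 86.4 ± 18.4 to 340 ± 296 CPM (2.03 ± 0.514, adjusted p = 0.0128, edgeR). Without UN 2, Tyrobp was at 1.85 and C1qb at 1.36, both called. Summed by mouse, Ctss was called (adjusted p = 0.0991, edgeR) and Tyrobp and C1qb were not (adjusted p = 0.133 and 0.194, edgeR). In UT 18 of the 20 were higher than in U (median 1.73 against 0.11 over all genes), in the bladder 4 were higher with BBN (median 1.195 against 0.25), and between UT and UN none was called. In the bladder the largest change of a called core gene was that of Cd14, the endotoxin co-receptor, at 2.22 ± 0.422 (adjusted p = 0.00349, edgeR).

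Monocyte genes followed, with 6 of 9 called higher in UN and 5 of 9 in UT (medians 2.72 and 2.31), and 1 and 5 of 9 with libraries summed by mouse. The chemokine Ccl7, which draws monocytes, was 3.85 ± 0.869 higher in UN (adjusted p = 0.00661, edgeR), 2.62 without UN 2, and was not called summed by mouse (adjusted p = 0.156, edgeR). Plac8 was the largest in UT, from 9.10 ± 2.48 CPM in U to 254 ± 149 CPM (4.53 ± 0.510, adjusted p = 3.92e-06, edgeR), was called in the bladder (5.27 ± 1.06, adjusted p = 0.0052, edgeR), and was the 1 monocyte gene called between UT and UN (1.23 ± 0.399, adjusted p = 0.0858, edgeR). With the mouse as a block that call of Plac8 was lost (1.45 ± 0.454, adjusted p = 0.799, edgeR), as it was by voom and without any 1 of 10 of the 18 libraries. Ly6c2, the surface antigen of classical monocytes, was not called in UN (0.29 ± 0.321) or UT (0.16 ± 0.293), with adjusted p of 0.565 and 0.683 (edgeR).

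Genes of inflammatory activation were called higher for 10 of 14 in UN, 11 of 14 in UT and 5 of 14 in BBN bladder (medians 1.71, 2.42 and 2.77), and lower for 1 in UT. Summed by mouse, 2 of 14 were called higher in UN and 10 in UT. Ptgs2, cyclooxygenase 2, rose by 5.99 ± 1.07 in UT (adjusted p = 0.000208, edgeR) and 5.22 ± 0.928 in BBN bladder (adjusted p = 0.00221, edgeR), and Il6 by 4.62 ± 0.841 in UN (adjusted p = 0.00154, edgeR), where Il6 was called summed by mouse too (adjusted p = 0.0794, edgeR). Socs3, a feedback inhibitor of cytokine signaling, was 3.69 ± 0.445 higher in UT (adjusted p = 8.65e-06, edgeR). Nos2, the member of this kind, was not called in these comparisons. Genes of alternative activation were higher for 6 of 11 tested in UN, 7 of 11 in UT and 2 of 11 in BBN bladder, and summed by mouse 1 of 12 tested in UN and 6 of 12 in UT. Chil3, a chitinase-like protein, rose by 5.29 ± 1.17 in UN (adjusted p = 0.00595, edgeR), 6.69 ± 1.22 in UT (adjusted p = 0.000247, edgeR) and 4.06 ± 1.38 in BBN bladder (adjusted p = 0.0827, edgeR). In UN Chil3 was 4.66 without UN 3 and not called summed by mouse (adjusted p = 0.167, edgeR), and in the bladder its call was lost without any 1 of BB 2, BB 5, B 1 and B 2. Retnla, also of that kind, was called lower in UT than in UN (-2.86 ± 0.965, adjusted p = 0.092, edgeR). That call of Retnla was lost with the mouse as a block (-1.86 ± 1.77, adjusted p = 0.806, edgeR), by voom and without any 1 of 12 of the 18 libraries, and the log2 fold change was -0.91 without UN 2 (adjusted p = 0.543, edgeR).

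Of 12 genes of lipid-laden macrophages, some of them also expressed in fat, 4 were higher in UN and 5 higher and 2 lower in UT. The medians were 0.74 and 0.70 against 0.13 and 0.11 over all genes. Summed by mouse, 0 of the 12 were called by edgeR in UN (2 with an unadjusted p under 0.05), and 3 higher and 1 lower in UT. Gpnmb, a glycoprotein of phagocytes under lipid load, rose from 3.09 ± 2.08 to 88.8 ± 163 CPM in UN (4.53 ± 0.917, adjusted p = 0.00317, edgeR) and to 64.9 ± 56.6 CPM in UT (4.11 ± 0.874, adjusted p = 0.000829, edgeR), and Lgals3 by 2.39 ± 0.544 and 2.81 ± 0.533 (adjusted p = 0.00702 and 0.000336, edgeR). UN 7 held 456 CPM of Gpnmb, and without it UN had 27.7 ± 21.2 CPM (SD, n = 6) and a log2 fold change of 3.06 (adjusted p = 0.00803, edgeR). Lgals3 in UN was at 1.59 without UN 3 (adjusted p = 0.0238, edgeR). Lpl, a lipase also abundant in adipocytes, fell by 2.68 on the log2 scale in UT (adjusted p = 0.00869, edgeR). In BBN bladder none of the 12 was called higher and Plin2 fell by 1.89 (adjusted p = 0.00263, edgeR). Among 12 genes of resident macrophages, 11 tested, 5 were higher in UN and 3 in UT, and in BBN bladder 1 was higher and 2 lower. Summed by mouse, 0 of the 11 were called by edgeR in UN (3 with an unadjusted p under 0.05) and 2 in UT. The chemokine Ccl8 led in UN, at 48.4 ± 23.6 CPM in U and 692 ± 1121 CPM in UN (4.03 ± 0.908, adjusted p = 0.00647, edgeR). UN 2 held 3212 CPM of Ccl8, and without it UN had 271 ± 161 CPM (SD, n = 6) and a log2 fold change of 2.34 (adjusted p = 0.0175, edgeR). F13a1, the gene closest to Mrc1 and Cd163, fell by 1.56 in BBN bladder (adjusted p = 0.0383, edgeR), and Cbr2 rose there by 3.27 ± 0.818 (adjusted p = 0.0194, edgeR). The call of F13a1 was lost without B 1 or B 2, and that of Cbr2 without any 1 of the 3 untreated bladders.

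Of 9 other scavenger receptors, 3 were higher in UN and 3 higher and 2 lower in UT, with medians of 0.39 and 0.495 against 0.13 and 0.11 over all genes. Summed by mouse, 0 were called by edgeR in UN (3 with an unadjusted p under 0.05), and 2 higher and 2 lower in UT. Msr1, the class A receptor related to Marco, rose from 4.84 ± 1.41 to 27.9 ± 21.7 CPM in UN (2.54 ± 0.530, adjusted p = 0.00386, edgeR) and to 45.0 ± 36.0 CPM in UT (2.95 ± 0.519, adjusted p = 0.000187, edgeR). Cd36, a fatty acid receptor that adipocytes and endothelium also carry, fell by 2.47 in UT (adjusted p = 0.0101, edgeR). Of 12 growth factors, receptors and transcription factors of the lineage, 5 were higher in UN, and 5 higher and 3 lower in UT, and summed by mouse 1 in UN and 4 higher and 2 lower in UT. Spi1, the factor PU.1, was 1.63 ± 0.539 higher in UN (adjusted p = 0.0466, edgeR), and Csf2, a growth factor for myeloid cells, 3.35 ± 1.02 (adjusted p = 0.0322, edgeR). The call of Spi1 was lost without UN 2 (1.04, adjusted p = 0.142, edgeR) or U 1L, and that of Csf2 without UN 3 (2.17, adjusted p = 0.171, edgeR). Cebpa, which adipocytes also express, fell by 2.38 in UT (adjusted p = 0.000617, edgeR).

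Markers of other cells were measured beside the members. Neutrophil markers summed to 55.9 to 851 CPM in UT, and 6 of the 9 tested rose in UT against U while 1 fell. Dendritic cell markers were called higher for 3 of 8 in UN and 3 of 8 in UT (1 lower), and T cell markers for 0 of 7 in UN and 6 of 7 in UT. Mast cell, fibroblast and endothelial markers had 0 called in UN. In UT, 1 of 7 mast cell and 2 of 6 fibroblast markers were higher and 1 of 7 endothelial markers lower. In BBN bladder 3 of 6 fibroblast and 1 of 7 endothelial markers were lower. Kidney tubule markers had 0 called in UN and 6 of 6 tested in UT, where UT 4 held most of the sum. Urothelial markers had 2 higher and 1 lower of 8 in UN, 3 and 3 in UT, and 0 and 4 in BBN bladder, where their sum went from 16087 to 16705 CPM without BBN to 598 to 6503 CPM with it. Ngp was at 0 in all 3 untreated bladders, and every other listed marker with a row had a count in each group. Their part in the member values was not tested.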

How the data were processed

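Bulk RNA-seq of 37 libraries was used. The authors deposited estimated counts per gene symbol for each library. According to the submitters' processing notes, TopHat2 2.1.1 and Cuffdiff 2.2.1 were used, and the reads were placed on GRCm38 (mm10). Of the nonzero values, 21.09% were not whole, and all were rounded before testing. No libraries of a group were duplicates (chi-square per degree of freedom at least 7.368).

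The genes and the gene lists were chosen with earlier results of these data known. Groups came from the labels. Counts were tested with edgeR 4.0.16 (TMM scaling, filter on low counts, quasi-likelihood F-test) in R 4.3.3, with ureter groups fitted together, and called at an adjusted p under 0.1 and a fold of at least 2. DESeq2 1.42.0, limma 3.58.1 (voom), other scaling, no filter, left-out libraries, summed libraries per mouse and a mouse block were the alternatives. Ratios used CPM + 0.5 in Python 3.11.15, numpy 2.4.6 and pandas 2.3.3. The procedures were tested on simulated data. Transcript lengths came from GENCODE. The order of levels by group medians, the shares of genes without overlap and the marker sum without members were added after the data were seen. Of each list, the 2 most abundant genes and, per comparison, the 2 called genes with the largest change could be named, and for each member the 3 genes most like it. Adgre1, Mertk and Ccr2 were named besides, as genes not called.

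UT and UN libraries of 7 mice are paired by animal. After subtracting group means, libraries of a mouse correlated with a median r of 0.0632 (range -0.205 to 0.695), against -0.0142 over 70 pairs of different mice. Other cell types were followed by marker lists only, and no deconvolution was made. A further gene of the set is not reported here.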

Additional observations from a re-analysis of the deposited data

Results flagged for a closer look

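Within groups of 4 to 10 libraries, 27 pairs of a member and a group were examined for a library far from the others, and 3 stood out, where chance gives about 1 in 20. Csf1r in UN 6 was 14.97 CPM, and the next lowest UN library, UN 3, had 114.1 CPM. This library had the lowest total of the ureter libraries, and the study lists its RNA as degraded. Mrc1 in U 3L was 19.14 CPM, where the next lowest, U 2L, had 43.31 CPM. Marco in the bladder of mouse 3 was 0.8432 CPM, where the next highest, that of mouse 1, had 0.3157 CPM, and both rest on few counts in libraries with degraded RNA. The response of Spp1 to BBN differed between noncancerous ureter and bladder by 4.819 on the log2 scale (edgeR's interaction test, adjusted p = 0.0607), and the call was lost with the mouse as a block.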

How the results depend on the processing

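With 1 sample per mouse, 1 member was called in UN against U and 1 ratio to Csf1r, with 2 ratios in UT against U. In UT against UN, 1 member was called without UT 9. Without the bladders of mice 1, 3 and 4, 1 ratio was called in the bladder. Voom called 4 members in the bladder, where it called 3275 of all genes higher and 2395 lower. In the interaction voom called 3 members, and over all genes 1099 larger and 720 smaller. Without UN 6 and the bladders of mice 1, 3 and 4, edgeR called 3 members in the interaction, and over all genes 679 larger and 330 smaller. With the replicate block (mouse), 0 members were called in UT against UN, 1 in U against bladder and 1 in the interaction, Cd163 in place of Spp1. The values that changed sign were not called before or after. Under voom these were, in UT against U, Cd163 (-0.028) and Nos2 (-0.84), in UT against UN, Cd68 (0.070), and in the bladder, Lyz2 (-0.23). Without UT 9 they were Nos2 in UT against U (-0.031) and Cd163 in UT against UN (0.030). With the block they were Cd68 (0.11), Csf1r (0.013) and Lyz2 (0.050) in UT against UN and Cd68 (-0.091) in the interaction. Lyz2 in the bladder was -0.014 without a filter and -0.12 without mouse 6. Without the degraded libraries Nos2 was 0.03995 in the interaction. Leaving out 1 library at a time gave 0 to 1 members in UT against UN, 1 to 3 in the bladder, 0 to 2 in U against bladder (0 without B 2, 2 without U 3L), 0 to 1 in the interaction, 0 to 1 ratios in UT against UN (1, Spp1, without UN 3 or UT 9), 1 to 2 in the bladder (1, Cd68, without B 1) and 3 to 5 in UN against U (5 without U 3L). It moved Nos2 in UT against U from -0.68 to 0.19. In UT against UN it moved Cd68 from -0.38 to 0.38, Csf1r from -0.33 to 0.16, Mrc1 from -0.46 to 0.047, Cd163 from -0.46 to 0.18, Lyz2 from -0.86 to 0.13 and Trem2 from -0.11 to 0.67. Lyz2 moved from -0.12 to 0.21 in the bladder and from -0.17 to 0.031 in U against bladder. In the interaction Cd68 moved from -0.32 to 0.44 and Nos2 from -0.52 to 0.18. Scaling by relative log expression in edgeR, in place of TMM, shifted the median of all genes by 0.1016 in the bladder and -0.1367 in the interaction. The causes were not tested. The calls of Cd68, Spp1 and Trem2 in UT against U held under every alternative run.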
